A study of Mus musculus with 4 samples.

Results

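The genes described here are 10 genes of the sebaceous gland that make wax esters and sterol esters, supply or store their building blocks, or receive the hormone signal of the gland: Awat1, Awat2, Far1, Far2, Dgat2l6, Soat1, Mc5r, Plin2, Acsbg1 and Mogat2. They were listed by name. Of the 10, 9 had a probe set paired with their symbol alone, among 19938 genes with such a probe set, and each of the 9 had exactly 1. Soat1, the enzyme that esterifies cholesterol, was not analysed here. A filter on low signal left 8 of the 9 for testing, and Mogat2 fell below it. C57Bl6 mice gave whole back skin on postnatal day 22, with hair follicles in telogen, the resting phase, and the skin was taken at ZT22, that is 22 h after lights on. The controls were 2 mice with 1 mutant and 1 wild-type allele of Bmal1, and the other 2 mice lacked both copies from the germline on, so the loss was in every tissue and no mouse was wild type. Each Affymetrix whole-transcript array was taken as 1 mouse. The comparison of knockout (KO) with heterozygous (het) arrays asks which skin transcripts depend on Bmal1 late in the night.

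Sebaceous glands empty a lipid mixture, sebum, into the hair canal by the breakdown of whole cells. Wax esters in sebum join a fatty acid to a fatty alcohol: fatty acyl-CoA reductases (Far1, Far2) make the alcohol, and wax synthases (Awat1, Awat2) join the parts. Triglycerides and cholesterol esters are built by related acyltransferases and kept in droplets coated by perilipins until the cell breaks down. The melanocortin 5 receptor (Mc5r) is known from mice that lack it, which secrete less sebum.

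BMAL1 and its partner CLOCK bind E-boxes, so the sequence around the start sites of the measured genes was searched for clock motifs. RefSeq promoter windows (GRCm38.p6, 250 bases before to 50 after a start) were found for 7 of the 9 measured genes, with 8 windows in all, because Awat2 has 2 starts. The E-box CACGTG was in 1 of the 8 windows, that of Plin2, and in 7.15% of all 32851 windows. The variant CACGTT was in 1, that of Far2, and in 4.68% of all windows. None of the 8 held the D-box TTATGTAA, which is in 0.938% of all windows. Both strands were read, CACGTG is its own reverse complement, and a window could count for more than 1 motif. A match is only a match of letters, and its absence says nothing about the factor. The stretches below run from 120 bases before to 10 after the start of Plin2 (chr4:86670050-86670179, minus strand), Far2 (chr6:148047296-148047425, plus strand) and Awat1 (chrX:100572127-100572256, plus strand). Plin2 and Far2 are shown for their matches, in capitals, and Awat1 because its difference between genotypes was the largest of the measured genes.
Plin2: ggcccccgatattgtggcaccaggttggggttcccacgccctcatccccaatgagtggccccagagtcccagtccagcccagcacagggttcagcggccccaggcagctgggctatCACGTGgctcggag
Far2: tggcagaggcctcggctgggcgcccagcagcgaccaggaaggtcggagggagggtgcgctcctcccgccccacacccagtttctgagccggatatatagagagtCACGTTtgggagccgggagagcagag
Awat1: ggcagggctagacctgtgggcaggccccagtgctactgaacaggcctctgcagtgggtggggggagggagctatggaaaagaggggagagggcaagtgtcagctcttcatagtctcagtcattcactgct
The Plin2 match spans the start, from base -4 to base 2, and the Far2 match lies from base -16 to base -11.

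Values are log2 signals after quantile normalization of the 4 arrays, and differences are KO minus het. The number of arrays limits the precision of every value. Arntl, the gene of BMAL1, read 8.90 and 9.08 in the het arrays and 8.29 and 8.15 in the KO arrays, a difference of -0.76 (limma, SE 0.12, adjusted p = 0.015). Where the probes of Arntl lie relative to the deleted part is not known here, so this value does not measure intact mRNA. Het array 2 was less like the KO arrays than het array 1 was. Over tested probe sets het array 2 correlated at 0.966 with KO array 1 and 0.974 with KO array 2. For het array 1 these were 0.976 and 0.980. Het array 2 was closest to het array 1 (0.982), and the KO arrays correlated at 0.988 with each other. Differences without het array 2 are given for each of the 8 tested genes of the list and for a part of the others. Transcripts that define skin were present, with mean log2 levels of 12.1 to 12.6 for 5 keratinocyte markers and 11.8 to 12.1 for 6 fibroblast markers. Xist read 12.3 to 12.4 in all 4 arrays, and the Y-linked genes with a probe set (Kdm5d, Eif2s3y and Uty) stayed below the filter in each, between 3.43 and 5.49.

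All 9 measured genes had a higher mean in the KO arrays, as did 54.2% of all tested probe sets, and 1 of them, the wax synthase gene Awat1, passed the test. Tests were limma's, with Benjamini-Hochberg adjustment over 16341 probe sets and a threshold of 0.05. Over all of these, 1.47% rose (241) and 0.502% fell (82), against 1 of the 8 tested members that rose and 0 that fell. At an unadjusted p under 0.05, 7 of the 8 were higher, against 11.6% of all tested probe sets. Both KO arrays lay above both het arrays for all 8, against 27.8% of all tested probe sets. The median difference over the 8 was 0.56, against 0.02 over all tested probe sets. Without het array 2 the median of the 8 was 0.37, 5 of them had an unadjusted p under 0.05 and were higher (6.92% of all), and 1 passed the adjusted threshold (1.25% of all rose there). Awat1 and the rest of the list were chosen with results of these arrays in view, so the counts describe the list and are not evidence of its direction. In whole skin, more sebaceous cells and more RNA per cell cannot be told apart.

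**Figure D1:**
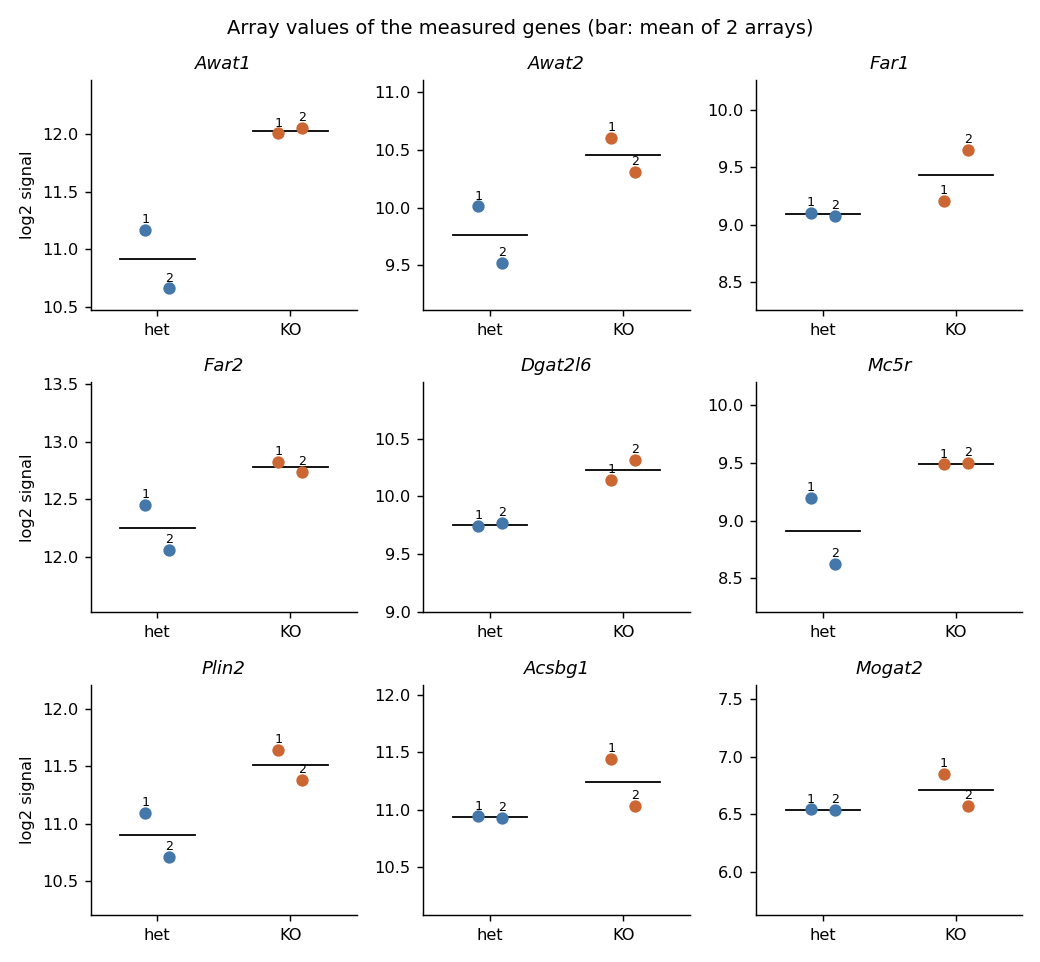
Log2 signal (y axis, quantile normalized) of the 9 measured genes in the 2 het and the 2 KO arrays. Each point is 1 array, numbered as in the labels, the bar is the mean of the 2, and every panel spans the same range. For Awat1 the KO arrays sit at 12.0 and 12.1 and the het arrays at 11.2 and 10.7, while for Acsbg1 KO array 2, at 11.0, lies just above the het arrays.

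Of the wax synthase genes, Awat1 passed and Awat2 did not, and the difference between them was not tested. Awat1 read 11.17 and 10.66 in the het arrays and 12.01 and 12.06 in the KO arrays. The KO arrays were close to each other and above both het arrays, of which het 2 was the lower. Awat1 rose by 1.12 (SE 0.16, 95% interval 0.76 to 1.47), a 2.17-fold higher signal, with an adjusted p of 0.012. It ranked 56th by p among the 16341, and its difference lay at percentile 99.8. Leaving out 1 array gave 0.86 (without het 2) to 1.37 (without het 1), with adjusted p between 9.1e-04 and 0.039. The call depended on which probe sets were tested: with those paired with several genes added, the adjusted p of Awat1 was 0.102, and with all probe sets it was 0.247. In these wider tests limma called 0 of 17557 and 0 of 24010 probe sets, with 2713 and 3254 at an unadjusted p under 0.05, so every call given here ended in them.

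Awat2, a wax synthase that also esterifies retinol and diacylglycerol, read 10.01 and 9.52 in the het arrays and 10.60 and 10.31 in the KO arrays. Het 2 was again the lowest array, and the groups did not overlap. Its difference was 0.69 (SE 0.17, 95% interval 0.31 to 1.07), and it did not pass (adjusted p = 0.073). Without het 2 it was 0.45. Dgat2l6, a relative of the wax synthases in the DGAT2 family, read 9.74 and 9.77 in the het arrays and 10.14 and 10.32 in the KO arrays. Here the het arrays were nearly equal, so the difference of 0.47 (SE 0.12, adjusted p = 0.073) changed little without het 2, to 0.49. Mogat2, a monoacylglycerol acyltransferase best known from the intestine, read 6.54 and 6.54 in the het arrays and 6.85 and 6.58 in the KO arrays, below the filter at 6.67. In a fit without the filter it differed by 0.17 (SE 0.16, 95% interval -0.19 to 0.54). As deposited, before normalization, the Mogat2 values of the genotypes overlapped (het 6.54 and 6.69, KO 6.74 and 6.56).

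Awat2, Dgat2l6 and Awat1 lie close together on the X chromosome. In the RefSeq annotation Dgat2l6 and Awat1 are direct neighbours, and 2 protein-coding genes, Otud6a and Igbp1, lie between them and Awat2. With the 3 protein-coding genes on either side the stretch holds 11 genes, of which 10 were tested. The 7 tested genes of it that are not wax or acyltransferase genes had differences from -0.08 (Tmem28) to 0.21 (Pja1), and none passed (adjusted p of 0.436 or more). Otud6a differed by 0.12 and Igbp1 by 0.08. The members were listed with results of these arrays in view, so their contrast with these neighbours is a description only.

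The reductases that make fatty alcohols did not pass. Far2, the reductase with a preference for saturated chains, read 12.45 and 12.06 in the het arrays and 12.82 and 12.74 in the KO arrays. Its difference was 0.53 (SE 0.14, 95% interval 0.21 to 0.85, adjusted p = 0.094), or 0.33 without het 2. Far1, which also supplies alcohols for ether lipids, read 9.11 and 9.08 in the het arrays and 9.20 and 9.65 in the KO arrays. KO 1 lay just above the het arrays, so the difference of 0.34 (SE 0.15, adjusted p = 0.273) rested on KO 2 and was 0.11 without it (0.32 without het 2). The interval of the Far1 difference ran from 0.01 to 0.67. That of Far2 overlapped it, and whether the 2 genes differed from each other was not tested.

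Acsbg1, an acyl-CoA synthetase that activates long fatty acids, had the smallest difference of the tested members. It read 10.94 and 10.93 in the het arrays and 11.44 and 11.03 in the KO arrays. The difference of 0.30 (SE 0.14, 95% interval -0.02 to 0.62, adjusted p = 0.304) was 0.10 without KO 1, 0.51 without KO 2 and 0.30 without het 2. Plin2, the perilipin that coats droplets in most cell types, read 11.10 and 10.71 in the het arrays and 11.64 and 11.38 in the KO arrays. Its groups did not overlap, and the difference was 0.60 (SE 0.15, 95% interval 0.26 to 0.95, adjusted p = 0.078), or 0.41 without het 2. Mc5r, the receptor, read 9.20 and 8.62 in the het arrays and 9.49 and 9.50 in the KO arrays. The KO arrays were nearly equal, while het 2 lay well below het 1. Its difference was 0.59 (SE 0.17, 95% interval 0.21 to 0.96, adjusted p = 0.109). It was 0.30 without het 2 and 0.87 without het 1.

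**Figure D2:**
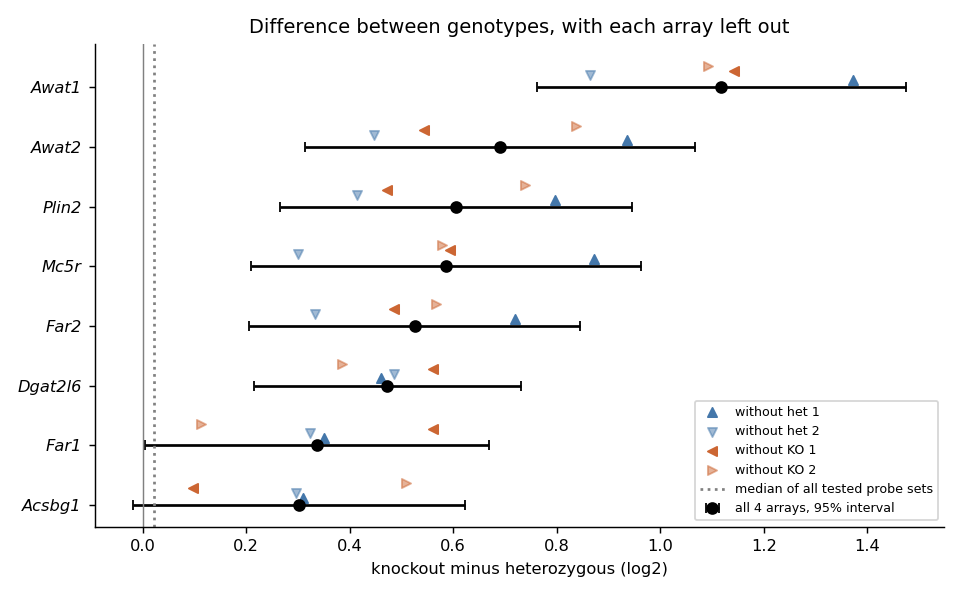
KO minus het difference (x axis, log2) of the 8 tested genes with limma's 95% interval (black), and the same difference with each array left out (triangles); the dotted line is the median of all tested probe sets, 0.02. The differences run from 0.30 for Acsbg1 to 1.12 for Awat1, and without het 2 they move down most for Mc5r, Awat1 and Awat2.

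The sign was the same under every setting that was run, while the adjusted p was not. Over 14 other settings (scaling, filter, variance prior, block, probe sets tested and arrays left out), all 8 genes were higher in each, 112 of 112 values. Most of these values could not have turned in sign. Filter, prior, block and choice of probe sets leave the difference of a gene as it is. Leaving out 1 array cannot turn it where the groups do not overlap, as for all 8. Only median centring and the deposited values could have done so. Awat1 passed in 12 of the 14, Awat2 in 6, Far2, Dgat2l6, Mc5r and Plin2 in 3 each, and Far1 and Acsbg1 in 0. The scaling moved the whole table: the median of all tested probe sets was 0.02 after quantile normalization, 0.07 as deposited and 0.10 after median centring. Of the probe sets past the adjusted threshold, 74.6% were higher in the KO arrays after quantile normalization and 85.4% after median centring.

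**Figure D3:**
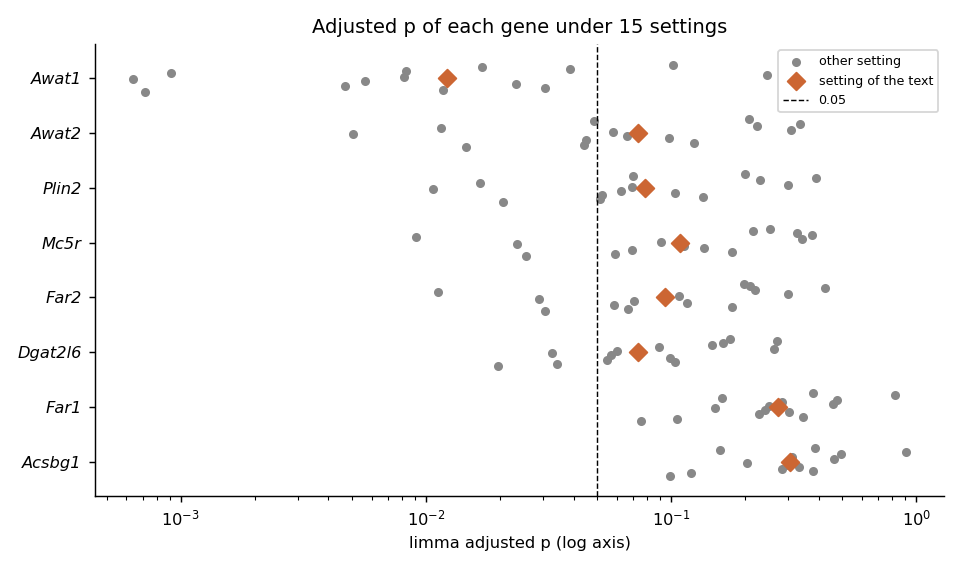
Limma adjusted p (x axis, log scale) of the 8 tested genes under the setting of the text (diamond) and 14 others (grey points); the dashed line is 0.05. The diamond of Awat1, at 0.012, is the only one left of the line, and its grey points run from 6.4e-04 to 0.247.

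The list of neutral lipid acyltransferases and related enzymes held 10 other tested genes. It includes the phosphatases Lpin1 (0.28) and Lpin2 (0.20), and Mboat1 (-0.17) and Mboat2 (-0.04), which act on phospholipids. In this list 6 genes, both lipins among them, read higher in the KO arrays, near the 54.2% of all tested probe sets. Of the 10, 2 rose and 0 fell, against 1.47% and 0.502% of all (median 0.24, or 0.13 without het 2). Dgat1, which adds the last fatty acid to triglycerides and can also esterify fatty alcohols, read 10.20 and 9.55 in the het arrays and 10.76 and 10.94 in the KO arrays. It rose by 0.98 (SE 0.19, adjusted p = 0.033). Its difference was 0.65 without het 2, and the call ended without KO 1 (adjusted p = 0.074) or KO 2 (0.071). Agpat3, which adds the second acyl chain to glycerol phosphate, rose by 0.74 (SE 0.15, adjusted p = 0.038), a call that ended without het 2 (0.095) or KO 1 (0.218). Gpam, the first enzyme of that path, differed by 0.38 (adjusted p = 0.131). Dgat2, the founding member of the family of the wax synthases, differed by -0.02, with 12.16 and 11.92 in the het arrays and 11.99 and 12.05 in the KO arrays. Mogat1, a relative of Mogat2, was below the filter, at 6.56 and 6.53 in the het arrays and 6.15 and 6.00 in the KO arrays. Soat2 was not analysed here.

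Over all tested probe sets 1.47% rose and 0.502% fell. Genes that supply fatty acids had 2 of 17 that rose and 0 that fell (median 0.23, or 0.11 without het 2). They were the elongases Elovl3 (0.82, SE 0.12, adjusted p = 0.012) and Elovl7 (0.61, SE 0.13, adjusted p = 0.049), while the desaturase Scd3 differed by 0.65 (adjusted p = 0.072), and by 0.41 without het 2. The Elovl3 call ended without KO 1 (adjusted p = 0.060), and that of Elovl7 without het 2 (0.120), KO 1 (0.202) or KO 2 (0.133). Of 8 tested acyl-CoA synthetases none passed (median 0.23). The smallest p were those of Acsl4 (0.51), Slc27a4, a fatty acid transport protein of the epidermis (0.62), and Slc27a1 (0.40, or 0.13 without het 2). Acsbg2, the relative of Acsbg1, was below the filter. Among 16 genes of lipid droplets and lipases 1 rose, Fitm1 (0.82, SE 0.13, adjusted p = 0.017), known mainly from muscle. The list's median was 0.11, or 0.06 without het 2. The Fitm1 call ended without KO 1 (adjusted p = 0.066). Hilpda, a lipase inhibitor, differed by 0.59 (adjusted p = 0.050), just short of the threshold, and Cidea, a droplet protein of sebocytes and brown fat, by 0.70 (adjusted p = 0.051). The other perilipins did not pass: Plin1 differed by 0.28 (-0.05 without het 2 and 0.62 without het 1, so its direction rested on 1 array), Plin3 by 0.04, Plin4 by 0.05 and Plin5 by 0.07, against 0.60 for Plin2.

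Genes for sterol esters and ether lipids, the other uses of these parts, had no member that passed. Over 9 genes of sterol ester handling the median was -0.05, but 0.04 as deposited and 0.07 after median centring, so its sign depended on the scaling. Nceh1, which splits cholesterol esters, differed by 0.45 (adjusted p = 0.166), or by 0.22 without het 2, Npc2, a lysosomal cholesterol carrier, by -0.23 and Scarb1, a lipoprotein receptor, by 0.19. Over 9 genes of ether lipid synthesis, a path that uses the alcohols that Far1 makes, the median was 0.25, or 0.12 without het 2. Gnpat, the first enzyme of that path, read 9.31 and 9.30 in the het arrays and 9.68 and 9.67 in the KO arrays, a difference of 0.37 (adjusted p = 0.113). Agps, which puts the alcohol in, differed by 0.51 and Pex5, a peroxisomal import receptor, by 0.32, or by 0.25 and 0.18 without het 2.

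Of the other melanocortin genes, 8 had a probe set, 4 were tested and none passed. Their median was -0.03, but -0.25 without het 2 and 0.14 without het 1. The pigment receptor Mc1r differed by -0.28 (adjusted p = 0.414), Mc3r by -0.12 and the accessory protein Mrap by 0.20. Without het 2 these were -0.54, -0.38 and -0.11, so the sign of Mrap turned, while Mc2r, Mc4r and the hormone precursor Pomc were below the filter. Whether Mc5r differed from them was not tested. None of 12 regulators of the gland passed either (median 0.09, or 0.01 without het 2). Pparg, the receptor that drives sebocyte maturation, differed by 0.16, the hedgehog ligand Ihh by -0.32, its target Gli1 by -0.25 and Prdm1, a repressor found in sebaceous cells, by 0.20.

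**Figure D4:**
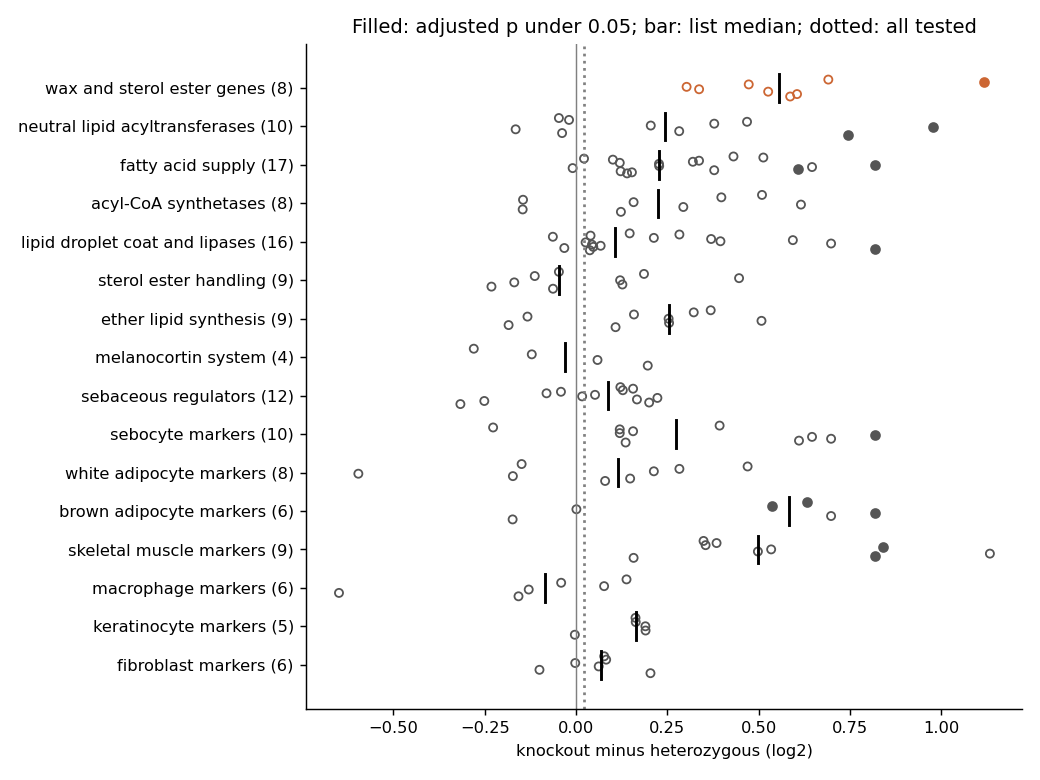
KO minus het differences (x axis, log2) of the 8 tested wax and sterol ester genes (top, orange) and of the tested genes of 15 other lists, with the number of genes in brackets; filled points passed an adjusted p of 0.05, bars are list medians and the dotted line is the median of all tested probe sets. The median of the top list is 0.56, that of the brown adipocyte markers 0.58 and that of the skeletal muscle markers 0.50.

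Markers of several cell types moved between the arrays, and their part in the differences above was not tested. The 10 sebocyte markers outside the list had mean log2 levels of 11.0 and 10.6 in the het arrays and 11.2 and 11.1 in the KO arrays. Elovl3, Scd3 and Scd1 are also in the fatty acid list above, Cidea in that of droplets and Pparg in that of regulators. Of these 10 markers, 1 rose, Elovl3 (1.47% of all tested probe sets did). The median difference was 0.27, or 0.11 without het 2 and 0.44 without het 1. At an unadjusted p under 0.05, 5 of the 10 were higher, against 11.6% of all tested probe sets: Elovl3, Cidea (0.70), Scd3 (0.65), Krt79 (0.61) and Fabp5 (0.39). The others were Pparg (0.16), Krt7 (0.14), Scd1 (0.12), Mgst1 (0.12) and Apoc1 (-0.23). Without het 2 Elovl3 differed by 0.71, Cidea by 0.49, Scd3 by 0.41, Krt79 by 0.40 and Fabp5 by 0.25. Pparg, Scd1 and Mgst1 each turned to -0.04 and Krt7 to -0.03, and Apoc1 differed by -0.18. Skeletal muscle markers had mean levels of 12.0 and 12.0 in the het arrays and 12.7 and 12.4 in the KO arrays. All 9 of them were higher (54.2% of all tested probe sets were). For all 9 both KO arrays lay above both het arrays, against 27.8% of all tested probe sets. At an unadjusted p under 0.05, 8 of the 9 were higher, against 11.6% of all. The median was 0.50, or 0.45 without het 2, and 2 rose, Casq1 and Mylpf (1.47% of all did). Both calls ended without KO 1 (adjusted p = 0.102 and 0.112). The brown fat markers share Cidea and Elovl3 with the sebocyte list. Of 6 tested, 3 rose (1.47% of all tested probe sets did): Elovl3, Ppargc1a (0.54) and Cox8b (0.63). Their median was 0.58, or 0.51 without het 2. With 1 array left out, Ppargc1a passed without het 1 alone and Cox8b without het 2 alone (adjusted p up to 0.198 in the others). Muscle expresses Ppargc1a too, and Ucp1, which defines brown fat, was below the filter at 5.49 to 6.01. White adipocyte markers ran from 11.0 to 11.5 in the het arrays and from 11.2 to 11.4 in the KO arrays. The genotypes thus overlapped, and none of 8 passed. They went both ways, 5 higher and 3 lower, with a median of 0.11, or -0.15 without het 2. The differences ran from -0.60 for Lep to 0.47 for Retn, or -0.93 and 0.11 for these 2 without het 2. Keratinocyte markers ran from 12.1 to 12.6 in the het and from 12.4 to 12.6 in the KO arrays, with none of 5 passing. In both lists het 2 was the lowest array, as it was for every measured gene but Dgat2l6. For Far1, Acsbg1 and Mogat2 it lay just below het 1. The macrophage markers, of cells that also make Plin2, had a median of -0.09 over 6 genes that went both ways, from -0.65 for Cd68 (adjusted p = 0.073) to 0.14 for Mrc1, and none passed. Without het 2 Cd68 differed by -0.87 and fell (adjusted p = 0.017).

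**Figure D5:**
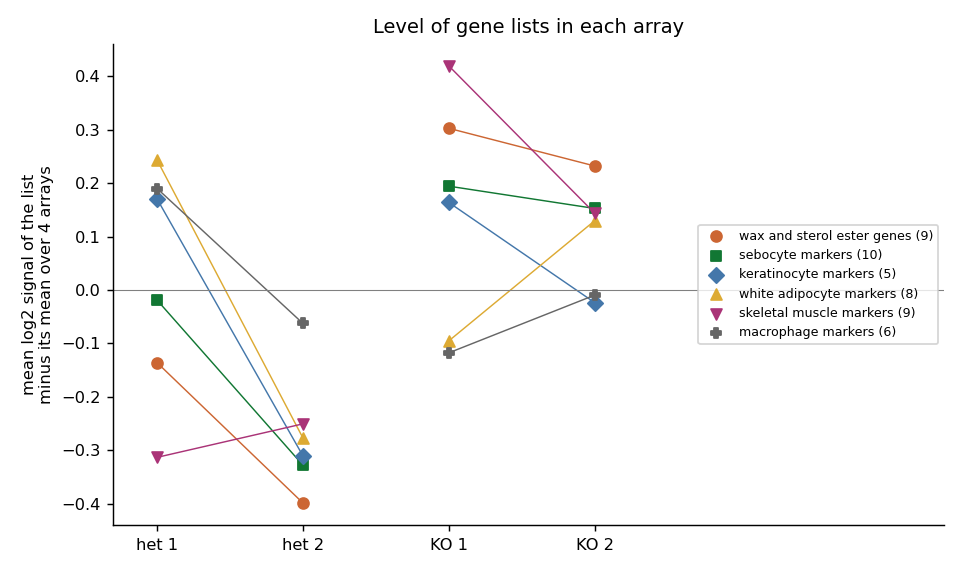
Mean log2 signal of 6 gene lists in each array, minus the list's own mean over the 4 arrays (y axis), with the number of genes in brackets; lines join arrays of a genotype and show no order. The wax and sterol ester genes and the sebocyte markers are lowest in het 2 and higher in both KO arrays, the muscle markers are low in both het arrays, and the keratinocyte and adipocyte markers are lowest in het 2.

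The profile of the tested members over the 4 arrays, each gene centred on its own mean, averaged -0.14 and -0.44 in the het arrays and 0.31 and 0.27 in the KO arrays. The 5 probe sets with the closest centred profile were those of Mrpl45, a mitochondrial ribosomal protein, Cmbl, a hydrolase, Abhd18, Postn, a matrix protein of the dermis, and Rcl1, a nucleolar protein. Their root mean square distance to it was 0.018 to 0.024. This likeness is a description over 4 arrays.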

How the data were processed

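Whole skin RNA of 4 mice was profiled, and per the labels' protocols it was isolated with TRIzol and RNeasy columns and labelled with the Ambion WT kit. The submitters' processing notes name Affymetrix Expression Console 1.1.1 with PLIER 2.0. The deposited table holds 35557 probe sets, read as log2 values because they range from 2.54 to 14.9; no source used here gives the authors' scale or a normalization across arrays. First quartiles of the arrays differed by up to 0.34, so all 4 were quantile normalized. Of the probe sets, 21789 had 1 gene in the annotation, 1621 had several and 12147 none; 21698 symbols were updated through the gene identifier (GRCm38.p6 table).

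The test was limma 3.58.1 in R 4.3.3 (lmFit, eBayes with a trend), KO against het, over the 16341 probe sets with 1 gene and a mean above the 25th percentile (6.67), with no block. SEs and 95% intervals are limma's moderated ones. The fit was run on simulated arrays with known changes, drawn from limma's own variance model. They held no shift shared by the genes of an array, so this checks only the code. For lists, the probe set with the highest mean stood for a gene. Named are the listed genes, their paralogs, the 3 tested genes of each pathway list with the smallest p, the 5 closest profiles, Arntl, and markers and X neighbours beside a result. Members and lists were chosen with earlier results of these data known. Other settings were scaling (median centring, or as deposited), filter (none, or 50th percentile), prior (no trend, or robust), a replicate block, 1 probe set per gene, all probe sets, each array left out, and, added after the data were seen, probe sets with 1 or several genes. The design text names the replicates as biological, so each array was taken as 1 mouse, which the sample titles do not state. No 2 arrays shared more than 0.104% of their values.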

Additional observations from a re-analysis of the deposited data

How the results depend on the processing

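The median difference of the tested members ran from 0.37 to 0.76 over 14 other settings and stayed positive, though of these only the scaling could have turned its sign. The number of probe sets past the adjusted threshold, 323, was 913 after median centring, 544 as deposited, 145 without a filter, and 0 both with all probe sets and with probe sets of 1 or several genes. It ran from 77 (without KO array 1) to 986 (without het array 1). The number of members past it, 1, was 6 after median centring, 3 as deposited, 2 with a 50th percentile filter, and 0 in both wider sets, and ran from 1 to 5 (without het array 1) with 1 array left out. The cause was not tested. With a replicate block by label number, 1235 probe sets and 6 members passed. No label ties a number to a litter, and same-numbered arrays deviated together only weakly (correlation 0.17 over tested probe sets). The residual and prior degrees of freedom summed to 9.73 here and to 6.12 with probe sets of 1 or several genes. Where 1 array was dropped, the remaining one of that genotype was taken to vary as the opposite genotype did. Precision is limited throughout by 2 mice per genotype, and Mogat2, below the filter, had no test in the fit of the text.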
